A study of Mus musculus with 20 samples.

Results

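The cells described here are 526 CD8 T cells from mouse melanomas that held at least 1 transcript of Tcf7, none of Havcr2 and few transcripts of mitotic genes. They were selected on these UMI counts from 7398 cells kept in 4 single-cell RNA libraries. All donor T cells carried OT-I, a transgenic antigen receptor that binds an ovalbumin peptide, and were either wild-type or from Tet2-/- mice crossed to OT-I mice. They were transferred into mice with B16-OVA, a melanoma line engineered to make ovalbumin, and the CD8+ tumour-infiltrating lymphocytes were collected 8 days later from mice that did or did not receive anti-PD-L1. The 4 groups were therefore wild-type untreated, wild-type anti-PD-L1, Tet2-knockout untreated and Tet2-knockout anti-PD-L1, and where 4 values follow each other below they stand in that order. Each group was 1 library. Not given in the sources used here are host strain, age, antibody dose, the number of animals behind a library and the deleted part of Tet2. A Tet2-/- donor lacks the gene in every cell type, and a single tumour antigen and receptor limit what the model covers. The series holds 20 samples, of which the 16 bulk RNA and ATAC sequencing samples were not analysed here.

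Tcf7 encodes TCF1, a DNA-binding factor that acts with LEF1 downstream of Wnt signalling and is needed to keep naive, memory and progenitor-like CD8 T cells. In chronic infection and in tumours, TCF1-positive cells divide, renew themselves and give rise to TIM-3-positive effector-like and exhausted cells. TIM-3 is the product of Havcr2. SLAMF6 is a surface receptor used to sort the TCF1-positive cells, ID3 is an inhibitor of E protein factors linked to their memory potential, and KLF2 is a factor that drives genes for circulation through blood and lymph node. Cells of this kind are known as those that expand when the PD-1 pathway is blocked.

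Cells were gated on transcript counts. A UMI, or unique molecular identifier, marks the reads copied from 1 captured molecule. A CD8 T cell had at least 3 UMIs of the CD3 genes, at least 1 of Cd8a or Cd8b1, fewer than 5 of C1qa, C1qb, C1qc and Lyz2, which mark macrophages, and fewer than 10 of 4 pigment cell genes. A mitotic cell had at least 4 UMIs summed over Mki67, Top2a, Birc5, Ube2c, Cenpf and Ccna2. The gate found 4930 CD8 T cells, of which 1894 were mitotic and 3036 were not. The selected cells are called Tcf7-positive cells below and numbered 132, 149, 167 and 78. They are compared with the remaining 371, 818, 729 and 592 non-mitotic CD8 T cells of the same libraries, called the other cells. Tcf7, Havcr2 and the gate genes chose the cells, so their levels are a description only.

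The Tcf7-positive cells of a library together held 464733, 841615, 707111 and 470966 UMIs, and their median depth was 3104.5, 4959, 3796 and 5636 UMIs a cell. The other cells had medians of 2981, 4538, 3462 and 5609.5, so depth was close within a library and differed between libraries. Their median share of mitochondrial UMIs lay between 2.39% and 2.79%. No barcode was shared between the Tcf7-positive cells of any pair of libraries. Every deposited table listed most barcodes a second time with other counts, and the second listing was used. In the first listing a Tcf7 UMI was present in 57.4%, 81.6%, 70.5% and 91.7% of the Tcf7-positive cells found there and in 12%, 4.94%, 5.90% and 1.62% of the other cells. The wild-type untreated library thus stood apart, with the closest shares between the listings' classes. Tet2 itself was at 10.8, 14.3, 19.8 and 17.0 CPM, the gene's UMIs scaled to a common total over the summed cells, in the Tcf7-positive cells. Counts near the 3′ end check the genotype only where that end is deleted, which the sources do not say.

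At the edges of the rule, 88, 91, 96 and 46 of the selected cells had exactly 1 Tcf7 UMI and 12, 25, 25 and 14 had 3 or more. Outside it, 317, 594, 623 and 377 non-mitotic cells had neither Tcf7 nor Havcr2, and 1, 10, 2 and 6 had both. At the mitotic edge, 23, 5, 12 and 3 selected cells had 3 mitotic UMIs. In macrophages of the same libraries, which should lack Tcf7 and had median depths of 2998, 5363, 4490.5 and 8838 UMIs, a Tcf7 UMI was found in 2 of 166, 1 of 125, 0 of 310 and 1 of 143 cells. Summed over the selected cells Tcf7 was at 415, 290, 390 and 293 CPM.

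Promoter sequence is shown for the 2 genes outside the rule with the largest rises among those named, Slamf6 and Dapl1, a gene known from naive and memory CD8 T cells whose role there is little understood. Dapl1 was chosen for this after its values were seen. Each is the 250 bases before the start site of the RefSeq promoter table on GRCm38.p6, plus strand, 5′ to 3′, and that site lies a few bases inside the full span of the Slamf6 gene. Slamf6 is at chr1:171917212-171917461 and Dapl1 at chr2:59484403-59484652.
Slamf6: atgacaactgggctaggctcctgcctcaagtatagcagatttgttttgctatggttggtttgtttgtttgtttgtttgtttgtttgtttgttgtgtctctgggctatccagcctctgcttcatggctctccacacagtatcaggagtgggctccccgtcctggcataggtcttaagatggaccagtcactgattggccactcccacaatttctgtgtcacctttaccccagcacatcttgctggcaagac
Dapl1: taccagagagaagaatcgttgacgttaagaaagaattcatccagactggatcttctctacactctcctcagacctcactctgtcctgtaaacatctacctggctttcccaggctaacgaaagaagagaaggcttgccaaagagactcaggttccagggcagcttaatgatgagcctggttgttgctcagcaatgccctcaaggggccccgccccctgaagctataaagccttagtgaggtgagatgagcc
Neither window holds, on either strand, CTTTG followed by 2 letters that are each A or T, a string of the kind TCF1 and LEF1 bind, nor CACCC, of the kind KLF2 binds, so nothing is in capitals. Of 32851 promoter windows of the same table, 14.8% hold the first kind of string and 52.0% hold CACCC.

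The Tcf7-positive cells carried the markers of the label more often than the other cells. Slamf6 was at 207, 170, 171 and 104 CPM in them and at 91.5, 27.3, 37.7 and 20.1 CPM in the other cells, higher in all 4 libraries without overlap. With every cell thinned to 2000 UMIs, a Slamf6 UMI was found in 32.6%, 24.2%, 22.2% and 17.9% of the Tcf7-positive cells, in 16.4%, 4.65%, 6.31% and 3.55% of the other cells and in 6.63%, 2.40%, 3.55% and 4.20% of macrophages. Unthinned, the shares of Tcf7-positive cells were 43.9%, 47.7%, 43.7% and 35.9%. Id3 was at 62.4, 14.3, 35.4 and 29.7 CPM against 19.8, 5.91, 9.71 and 6.88 in the other cells, but in both anti-PD-L1 libraries fewer Tcf7-positive cells than macrophages held a UMI of it after thinning (2.01% against 9.6%, and 3.85% against 11.2%). Klf2 was at 129, 396, 287 and 244 CPM against 69.2, 188, 72.2 and 77.3, and macrophages also express it, with a UMI in 17.5% to 64.0% of them. Single cells were sparse. Between 34.9% and 38.3% of the Tcf7-positive cells had no UMI of Slamf6, Id3 or Klf2, against 64.1% to 77.1% of the other cells. The label thus holds for the class as a whole, while the rule rests on 1 or a few Tcf7 UMIs in each cell.

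Tcf7-positive non-mitotic cells made up 12.2% of CD8 T cells in wild-type untreated (exact 95% interval 10.3% to 14.3%), 11.5% in wild-type anti-PD-L1 (9.80% to 13.3%), 10.9% in knockout untreated (9.39% to 12.6%) and 7.67% in knockout anti-PD-L1 (6.11% to 9.48%). The first 3 intervals overlap, and that of knockout anti-PD-L1 lies below those of both wild-type libraries and overlaps that of knockout untreated at its upper end. Intervals cover counting error only, and with 1 library per group no difference was tested. Depth differed between the libraries, so Tcf7 and Havcr2 were also read at equal depth, with the CD8 and mitotic gates kept at full depth. After every cell was thinned to 2000 UMIs, which left out no CD8 T cell, the shares were 8.48% (6.89% to 10.3%), 6.17% (4.92% to 7.62%), 7.32% (6.06% to 8.74%) and 3.54% (2.49% to 4.87%). The share that was mitotic also differed, at 53.6%, 25.4%, 41.5% and 34.1%. With the mitotic genes read after thinning it was 26.5%, 11.4%, 18.2% and 13.4%. Of non-mitotic cells alone, gated at full depth, the Tcf7-positive cells were 26.2%, 15.4%, 18.6% and 11.6%. With at least 2 Tcf7 UMIs asked for, the shares of CD8 T cells were 4.06%, 4.47%, 4.64% and 3.15%. Knockout anti-PD-L1 had the lowest share under each of these definitions, while the order of the other 3 libraries changed.

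**Figure D1:**
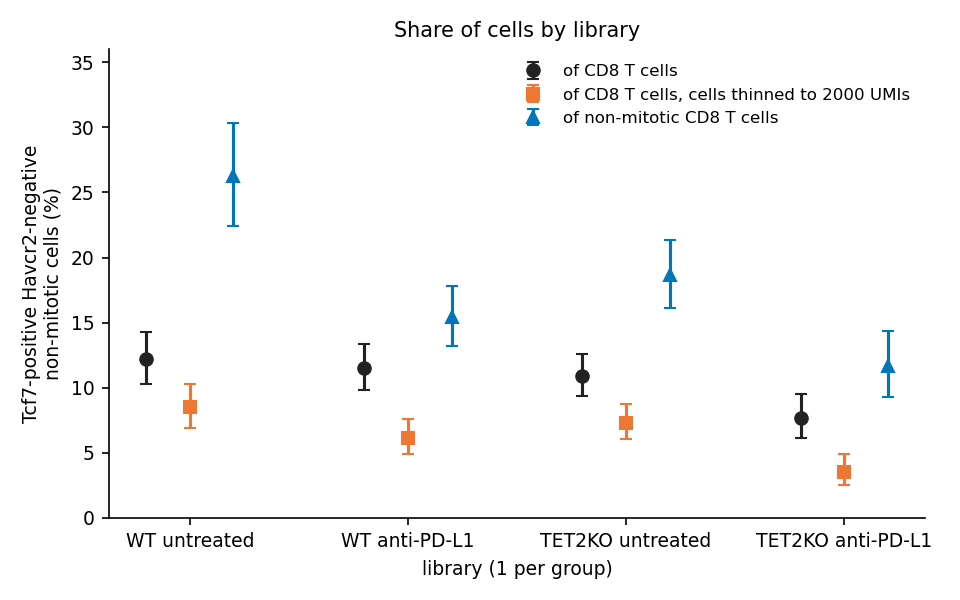
Share of Tcf7-positive Havcr2-negative non-mitotic cells (percent, vertical axis) in each of the 4 libraries, among CD8 T cells, among CD8 T cells thinned to 2000 UMIs and among non-mitotic CD8 T cells, with exact binomial 95% intervals for counting error. Knockout anti-PD-L1 is lowest in each series of points, from 3.54% to 11.6%.

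What the Tcf7-positive cells express beyond the rule was asked by comparing their summed UMIs with those of the other cells within each library. Of the lists tested, 5 of 7 naive and memory genes, 5 of 10 stemness factors and 6 of 11 progenitor exhausted genes were higher, and 17 of 18 effector genes were lower. Slamf6, Klf2 and Dapl1 were higher, and Gzmb, Ifng and Ccl5 lower, in each of the 4 libraries. Of 6289 genes with at least 10 CPM on average, 382 were higher (6.07% of those tested) and 375 lower (5.96%) at an adjusted p under 0.05 (edgeR quasi-likelihood test with Benjamini-Hochberg adjustment, library as a block). Their direction was the same in every library for 343 of the higher and 355 of the lower genes, 53 were more than 2-fold higher and 99 more than 2-fold lower. The median log2 fold over all genes tested was 0.01. The 4 libraries are 4 conditions, so the test asks whether a difference is shared by them, and it uses cells of the same libraries that the Tcf7 and Havcr2 counts had split.

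The number of calls depended on the libraries. Without wild-type anti-PD-L1 288 of 752 calls held, without knockout untreated 331 of 747, without knockout anti-PD-L1 521 of 751 and without wild-type untreated 641 of 752, and no gene changed sign. A fit without the library block called 9 genes higher and 11 lower. Of 82 genes named by rule, 77 were called. Of these, 37 kept call and direction in every alternative that tested them, other than the fit without the block. Not every alternative tested every gene, and a floor of 50 CPM left 65 of the 82. These 37 include Slamf6, Klf2, Dapl1, Lef1, Ccr7, Izumo1r, Rgs10, Gzma, Gzmb, Gzmc, Ifng, Ccl3, Ccl4, Ccl5, Cxcr6 and Id2.

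Among transcription factors of stemness and quiescence, 5 of 10 tested were higher and none was lower, with a median log2 fold of 0.39. Id3 (chromosome 4, 136143822 to 136145392) rose by a log2 fold of 1.76 ± 0.23 (SE, n = 4 libraries; adjusted p = 2.66e-05), and Lef1, the partner of TCF1, by 1.26 ± 0.15 (adjusted p = 6.59e-06), from 40.4, 25.4, 25.2 and 24.9 CPM in the other cells to 83.9, 65.4, 59.4 and 55.2. Lef1 was higher in 4 of 4 libraries, by 1.06 to 1.36. Each SE given with a log2 fold is the error of the fit and not the spread of the ratios over libraries. Myb, a factor needed for stem-like CD8 T cells, had a log2 fold of 1.38 (adjusted p = 0.000236), but in wild-type untreated it was at 36.6 against 34.6 CPM, with 17 UMIs in the Tcf7-positive cells. Foxp1 and Tcf12 were the other factors called. Bach2 (log2 fold 0.38, adjusted p = 0.309), Satb1 (0.16, adjusted p = 0.397) and Foxo1 (-0.23, adjusted p = 0.507), which restrain activation or maintain quiescence, did not pass, and Bcl6 was too low to test at 1.41 to 6.37 CPM.

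Of 11 tested genes of circulation and lymph node homing, 4 were higher and none was lower (median 0.23). Ccr7, the receptor for lymph node chemokines, was at 288, 1031, 632 and 832 CPM against 208, 511, 440 and 335 (log2 fold 0.91, adjusted p = 7.27e-06) and was found in 37.9% to 66.7% of thinned Tcf7-positive cells. Klf2, which activates the egress receptor gene S1pr1, rose by 1.47 ± 0.13 (adjusted p = 9.28e-08). Itgb7, an integrin chain of gut homing, had a log2 fold of 0.62 whose call was lost without knockout untreated (adjusted p = 0.124). S1pr1 was too low to test, with 8, 10, 1 and 4 UMIs. Il7r, the receptor chain for a survival cytokine (log2 fold -0.03, adjusted p = 0.931), and Cd69, which blocks egress (0.06, adjusted p = 0.758), did not pass.

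Dapl1 had the largest rise of the genes named by rule. It was at 566, 188, 133 and 115 CPM in the Tcf7-positive cells and at 212, 26.9, 15.8 and 4.01 CPM in the other cells. Both classes fell in the same order over the libraries, and the ratio grew from 1.42 in wild-type untreated to 4.84 in knockout anti-PD-L1 on the log2 scale. The shared log2 fold was 2.54 ± 0.26 (SE, n = 4 libraries; adjusted p = 1.18e-06), an SE of the fit that does not cover this range of ratios. Thinned to equal depth, 59.8%, 20.1%, 13.2% and 8.97% of Tcf7-positive cells held a Dapl1 UMI, against 0 to 0.323% of macrophages. Of 7 tested genes of naive and memory cells 5 were higher and none was lower. Besides Dapl1 they were Rgs10, a regulator of G protein signalling (1.25, adjusted p = 3.53e-08), Cd27, Smpdl3a and Actn1, of which Actn1 lost its call without any 1 of the libraries (adjusted p = 0.0634 to 0.196) and Smpdl3a without knockout untreated (adjusted p = 0.103).

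The surface and secreted genes linked to progenitor exhausted cells were split, with 6 of 11 tested genes higher and 3 lower. Slamf6 (chromosome 1, 171917458 to 171948958) rose by a log2 fold of 2.12 ± 0.18 (SE, n = 4 libraries; adjusted p = 4.36e-08) and Cd200, an inhibitory ligand, by 1.06 (adjusted p = 0.000214). Tnfsf8, the CD30 ligand, had 0.99 and lost its call without knockout untreated (adjusted p = 0.166). Cd83, Ikzf2 and Ltb were the other higher genes. Icos and Il21r were lower, as was Xcl1, a chemokine for cross-presenting dendritic cells often listed with these cells, at 658, 632, 542 and 1121 CPM against 675, 2154, 1925 and 2310. In wild-type untreated the classes had nearly the same Xcl1 level, and in the other 3 libraries the Tcf7-positive cells were lower, for a log2 fold of -1.17 (adjusted p = 9.20e-05; 0.0671 by DESeq2). Cxcr5, a marker of the same cells in chronic infection, had 0, 1, 1 and 0 UMIs. Izumo1r, the gene of folate receptor 4, was at 86.1, 102, 181 and 117 CPM against 47.8, 35.0, 78.4 and 45.0 (1.32, adjusted p = 5.43e-07).

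Inhibitory receptors were lower but not absent. Of 7 tested exhaustion genes, 5 were lower (Pdcd1, Lag3, Ctla4, Cd160 and Cd244) and 1, Tox, was higher. Pdcd1, which encodes PD-1, stood at 327, 297, 185 and 248 CPM against 372, 466, 358 and 432 in the other cells. It was lower in each library, least in wild-type untreated, with a log2 fold of -0.61 ± 0.09 (SE, n = 4 libraries; adjusted p = 0.000155), and 28.1% to 48.5% of thinned Tcf7-positive cells still held a UMI of it. Among the other cells 42.2% to 51.8% did, and in wild-type untreated the shares were nearly equal, at 48.5% against 47.4%. Lag3 had a log2 fold of -0.42 (adjusted p = 0.00104) and Ctla4 of -0.53 (adjusted p = 0.000135). For Lag3 the difference depended on leaving mitotic cells out of the comparison, since against all other CD8 T cells its log2 fold was 0.01. Cd244 had -1.45 and lost its call without wild-type anti-PD-L1 (adjusted p = 0.085) or knockout untreated (0.0622). Tox, the factor that sets up the exhausted state, was at 164, 68.9, 66.5 and 51.0 CPM against 98.1, 39.4, 48.2 and 38.4 (0.66, adjusted p = 0.00181), highest in wild-type untreated in both classes.

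The effector list moved furthest. Of 18 tested cytotoxic, chemokine and NK receptor genes, 17 were lower and none was higher, with a median log2 fold of -1.94, against a median of 0.01 over all genes. Gzmb, which encodes granzyme B (chromosome 14, 56258836 to 56262334), was at 60.2, 296, 253 and 459 CPM in the Tcf7-positive cells and at 2003, 2741, 2374 and 3549 CPM in the other cells. The ranges are far apart, and the gap was widest in wild-type untreated, where the log2 ratio was -5.06 against -2.95 to -3.23 elsewhere. Over the libraries the log2 fold was -3.35 ± 0.17 (SE, n = 4 libraries; adjusted p = 2.09e-11). Thinned, a Gzmb UMI was present in 6.06%, 18.8%, 16.2% and 24.4% of Tcf7-positive cells and in 53.6%, 72.2%, 64.6% and 78.9% of the other cells, so it was not at the level of macrophages (0.602% to 4%) either.

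Gzma (chromosome 13, 113093824 to 113100981) was at 2.15, 116, 53.7 and 130 CPM against 90.6, 1157, 795 and 1254 (log2 fold -3.43, adjusted p = 4.20e-14). Gzmc, a granzyme of strongly stimulated cells, had the largest fall of the genes named by rule at -5.52 (adjusted p = 1.45e-10), with 1, 6, 0 and 0 UMIs in the Tcf7-positive cells. Prf1, which encodes perforin, had 2, 1, 1 and 2 UMIs (-3.19, adjusted p = 1.02e-05). Gzmk differed from these. It had a log2 fold of -1.46 (adjusted p = 0.036), was higher in the Tcf7-positive cells of wild-type untreated at 21.5 against 10.7 CPM, and lost its call without wild-type anti-PD-L1 (adjusted p = 0.527) or knockout untreated (0.15).

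Ifng, which encodes interferon-γ, was at 21.5, 51.1, 103 and 87.1 CPM against 244, 476, 385 and 734 (-2.72, adjusted p = 1.71e-10). Ccl5 (chromosome 11, 83525778 to 83530518), a chemokine stored by memory and effector CD8 T cells, was at 73.2, 1620, 281 and 1892 CPM against 988, 8347, 4518 and 7641 (-2.77, adjusted p = 1.31e-08). In both classes it was higher in either anti-PD-L1 library than in either untreated one. Ccl3, Ccl4 and Ccl1, chemokines induced by antigen, had log2 folds of -3.34, -2.62 and -3.96. Of receptors for entry into inflamed tissue, Cxcr6 (chromosome 9, 123806477 to 123811754) was at 4.30, 121, 29.7 and 91.3 CPM against 124, 480, 275 and 459 (-2.42, adjusted p = 4.14e-09) and Ccr2 at 0, 39.2, 19.8 and 38.2 CPM against 35.4, 156, 105 and 177 (-2.21, adjusted p = 4.07e-08). The interferon-induced membrane protein genes Ifitm1 and Ifitm3 had -2.27 and -2.47, whereas of 16 tested interferon response genes only Isg15 (-1.23) and Bst2 (-0.41, not called without wild-type anti-PD-L1, adjusted p = 0.197) were lower.

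**Figure D2:**
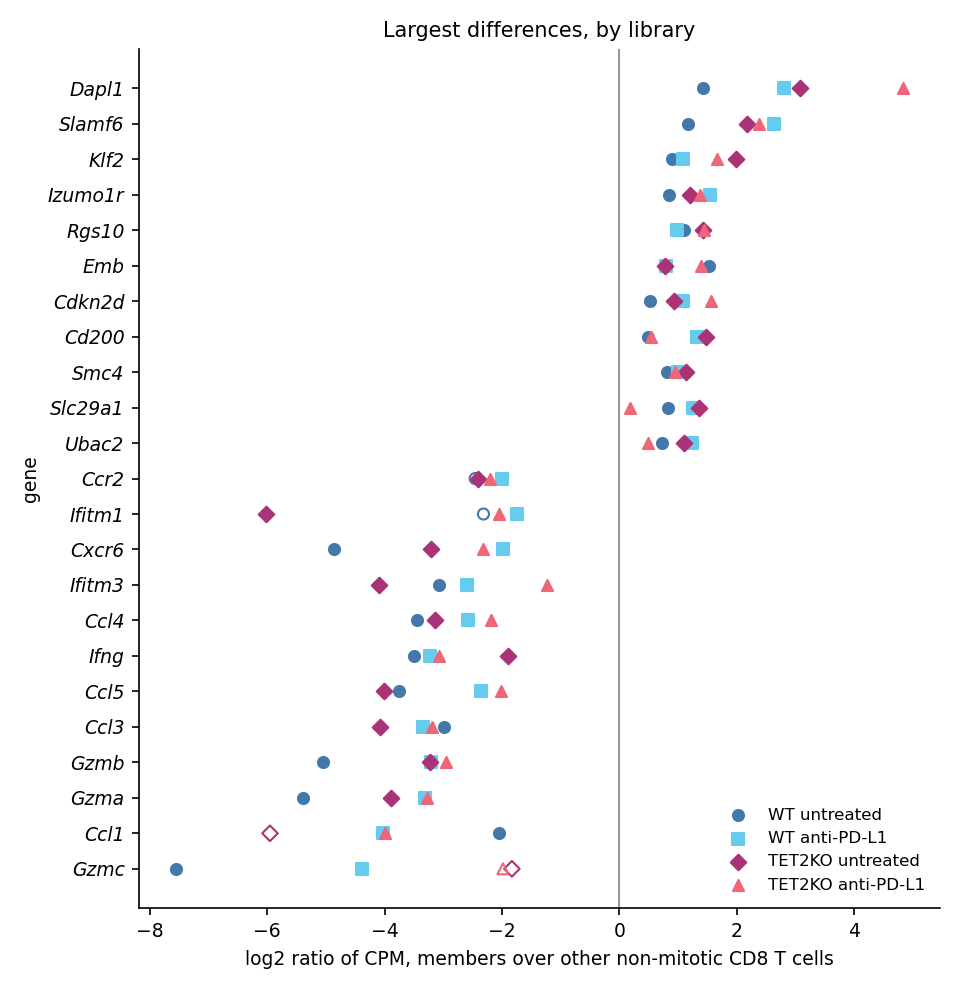
Log2 ratio of CPM of the Tcf7-positive cells over the other non-mitotic CD8 T cells (horizontal axis) for named genes (vertical axis), 1 point per library, with open points where a side had 0 UMIs and was set to 3. The points of Slamf6 and Dapl1 lie right of 0 in all 4 libraries, and those of Gzmb lie left of 0, with wild-type untreated lowest at -5.06.

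Of 11 tested factors of effector differentiation, 6 were lower and none was higher (median -0.59). Id2, the counterpart of Id3 in effector cells, was at 55.9, 291, 206 and 314 CPM against 348, 711, 455 and 559 (-1.25, adjusted p = 4.01e-06). Rbpj, the nuclear partner of Notch, had -1.29 and Bhlhe40, a factor of tissue-resident cells, -0.73. Irf8 and Stat3 were also called, and Zeb2 had -0.65 but lost its call without wild-type anti-PD-L1 (adjusted p = 0.146) or knockout untreated (0.12). Tbx21, which encodes T-bet (-0.52, adjusted p = 0.0744), did not pass, and Prdm1, which encodes BLIMP1, was too low to test, with 0, 1, 1 and 2 UMIs in the Tcf7-positive cells against 16.5, 12.6, 8.99 and 10.0 CPM in the other cells.

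Genes induced by the T cell receptor were lower in part. Of 14 tested, 7 were lower and none was higher. Tnfrsf9, which encodes the activation marker 4-1BB, was at 146, 257, 218 and 425 CPM against 337, 808, 667 and 1014 (-1.41, adjusted p = 4.16e-10), and Dusp5, a brake on ERK, had -1.41 and Il2ra -1.03. The survival kinase gene Pim1 (-1.23), the death gene Bcl2l11 (-0.77) and the survival gene Bcl2a1d were lower, and Bcl2 did not pass (0.10, adjusted p = 0.773). Jun had 0.61 and lost its call without wild-type anti-PD-L1 (adjusted p = 0.0989), while Junb (-0.39) and Jund (-0.44) were lower. Among glycolysis genes 5 of 14 were lower, led by the glucose transporter gene Slc2a3 (-0.99).

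None of 20 S phase genes and none of 6 TET and DNA methyltransferase genes was called in either direction by edgeR, and none of them had an unadjusted p under 0.05 or was called by DESeq2, 0 in each case. Ribosomal protein genes were higher as a group by small amounts. Of 80 tested, 62 were higher, with a median log2 fold of 0.24 and at most 0.38 (Rpl10a), and 1, Rpl7l1, was lower at -0.50, a call lost without wild-type anti-PD-L1 (adjusted p = 0.0749) or knockout untreated (0.077). Of 90 oxidative phosphorylation genes 4 were higher and 3 lower. Gimap1, Gimap3, Gimap5 and Gimap6, GTPase genes of lymphocyte survival, were higher by 0.29 to 0.34 among 8 tested, and each lost its call without 1 library or more. Without wild-type anti-PD-L1 these were Gimap1, Gimap3 and Gimap5 (adjusted p = 0.0795, 0.0604 and 0.0611), without knockout untreated Gimap1 and Gimap6 (0.0529 and 0.0851), and without knockout anti-PD-L1 Gimap1, Gimap3 and Gimap6 (0.088, 0.128 and 0.0517).

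The same split was repeated in mitotic CD8 T cells, which the rule had left out and which are therefore other cells, though of the same libraries. Cells with Tcf7 and without Havcr2 numbered 183, 85, 216 and 68 of 582, 330, 635 and 347 mitotic cells. Of 6420 genes tested, 183 were higher (2.85%) and 329 lower (5.12%). Of the 757 genes called in non-mitotic cells 729 were tested here, 698 had the same direction, 360 were called in the same direction and 0 were called in the opposite one. Those 360 are 47.6% of the calls in non-mitotic cells and 71.6% of the 503 calls in mitotic cells that were tested in both. Slamf6 (2.08), Id3 (2.40), Klf2 (1.39) and Dapl1 (1.95) rose on the log2 scale as in non-mitotic cells, and Gzmb (-2.25), Ccl5 (-3.02) and Cxcr6 (-2.59) fell. The effector list had 15 of 17 genes lower, with a median of -1.13. Tox (0.24, adjusted p = 0.358), Xcl1 (-0.28, adjusted p = 0.486) and Lag3 (-0.35, adjusted p = 0.0676) were not called there. Whether the folds differ between mitotic and non-mitotic cells was not tested. A Tcf7 UMI was found in 31.6%, 26.7%, 35.3% and 20.7% of mitotic cells, which were deeper, and after thinning in 16.5%, 10.0%, 16.1% and 6.63%, against 18.3%, 8.27%, 12.6% and 5.67% of non-mitotic cells.

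**Figure D3:**
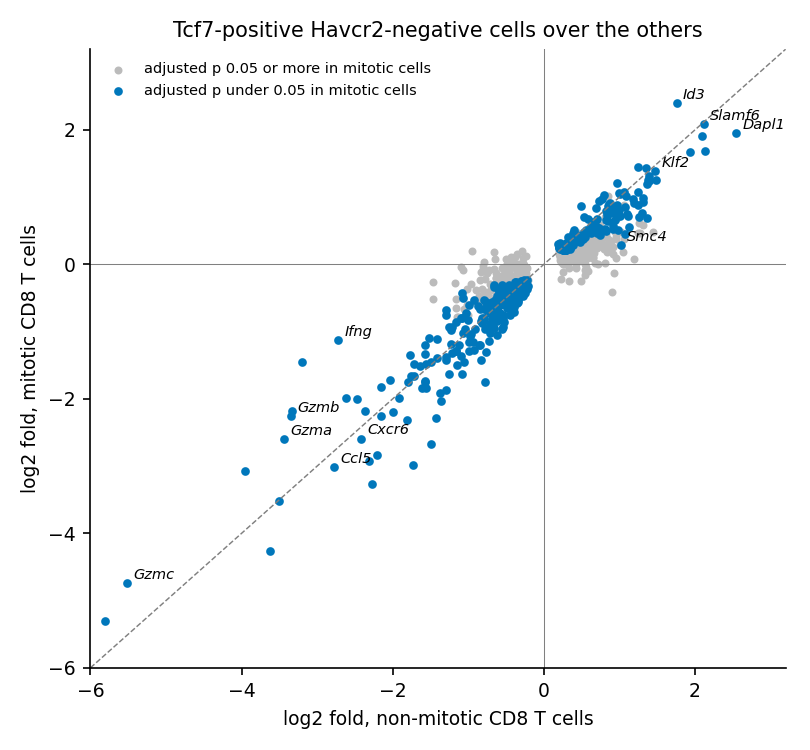
Log2 fold of Tcf7-positive Havcr2-negative cells over the rest in mitotic CD8 T cells (vertical axis) against that in non-mitotic cells (horizontal axis), 1 point for each of the 729 genes called in non-mitotic cells and tested in both, coloured by whether the gene was called in mitotic cells. The direction was the same for 698 of them.

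The comparison was repeated with another comparator and another count of each cell. When the Tcf7-positive cells were compared with cells that had neither Tcf7 nor Havcr2, so that both sides lacked Havcr2, 542 genes were called in both comparisons and 752 of 752 kept their direction. When cells were gated in the second listing and counted in the first, 385 genes were higher (6.09% of 6322) and 369 lower (5.84%), with 580 called both times and none in opposite directions. These counts share cells, and the listings share molecules to an unknown extent, so neither is a replicate.

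The Tcf7-positive cells were not uniform. Cells with 2 or more Tcf7 UMIs had lower levels of several effector genes than cells with exactly 1 in all 4 libraries, while Gzma and Cxcr6 were lower in 2 libraries and higher in 2. Gzmb was at 25.5, 150, 80.3 and 186 CPM in the former and 77.9, 389, 389 and 649 CPM in the latter. Ccl5 was at 38.3, 593, 225 and 1540 CPM against 90.9, 2271, 326 and 2137. Ifng, Ccl3, Ccl4, Id2, Lag3 and Cd69 were also lower in 4 of 4 libraries, and Klf2, Dapl1, Rgs10 and Bach2 higher in 4 of 4. Cd69 was nearly equal in wild-type anti-PD-L1, at 168 against 169 CPM. Bach2 rested on 3, 11, 10 and 11 UMIs against 4, 14, 9 and 10. Klf2 was at 153, 569, 318 and 289 CPM against 117, 286, 263 and 213. Slamf6 was higher in 3 of 4 libraries and lower in wild-type untreated. No test was run, since the split uses the gene of the rule, and the part of free or miscounted RNA in cells with 1 UMI was not tested.

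**Figure D4:**
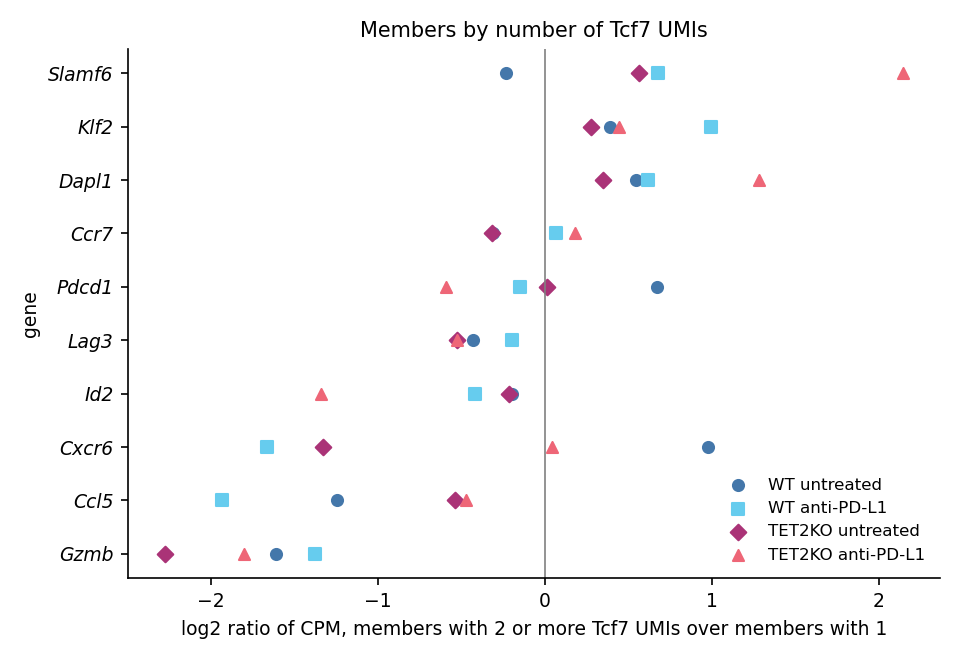
Log2 ratio of CPM in cells with 2 or more Tcf7 UMIs over cells with exactly 1 (horizontal axis) for selected genes (vertical axis), 1 point per library. Gzmb and Ccl5 lie left of 0 in all 4 libraries and Klf2 and Dapl1 right of 0.

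Markers of other cells differed in level. The B cell genes Cd79a and Ms4a1 had 0 UMIs in all 4 libraries, while Ighm, the immunoglobulin heavy chain gene of the same list, was found in 64.4% to 70.7% of Tcf7-positive cells and 33.5% to 53.9% of the other cells. Ighm was at 372, 295, 389 and 231 CPM against 288, 120, 220 and 133 (log2 fold 0.87, adjusted p = 1.48e-05) and at 124, 55.7, 82.9 and 66.9 CPM in macrophages. Without the cells that held an Ighm UMI, 127 genes were higher and 101 lower. Csf1r was at 0, and the 7 myeloid genes summed to 36.6 to 59.4 CPM against 36.5 to 66.7. The 5 NK genes summed to 47.3 to 108 CPM against 91.1 to 140, with Ncr1 at 0. The 4 CD4 and regulatory genes summed to 2.15 to 15.4 CPM against 4.94 to 14.3, the dendritic genes to 3.56 to 53.8 CPM against 19.8 to 106, and the melanoma genes to 17.8 to 90.4 CPM against 15.8 to 89.8. The gate capped C1qa, C1qb, C1qc and Lyz2 of the myeloid list and Mlana, Pmel, Dct and Tyrp1 of the melanoma list in both classes. The sums of these lists were therefore limited in advance by the rule. The 4 gamma-delta T cell genes summed to 99.0 to 253 CPM against 108 to 280.5, in 23.5% to 46.3% of Tcf7-positive cells, with Tcrg-C1 and Cd163l1 at 0 there. Globin and other red cell genes summed to 10.6 to 1885 CPM against 381 to 1297, the highest value coming from 1333 UMIs in 13 cells of knockout untreated. The part of these RNAs in the results was not tested.

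Host T cells could pass the gate. The OT-I receptor uses segments of the Trbv12 and Trav14 families. Of the 9 Tcf7-positive cells with any Trbv UMI all 9 had Trbv12 (100%, exact 95% interval 66.4% to 100%), as had 46 of 47 other cells, and of the 19 with any Trav UMI 4 had Trav14 (21.1%, 6.05% to 45.6%), against 3 of 68 other cells (4.41%). Receptor segments are thus seen in too few cells to say how many were donor cells. Y-linked transcripts were found in 15 of 132 and 15 of 149 wild-type and in 0 of 167 and 0 of 78 knockout Tcf7-positive cells, so between libraries genotype and the sex of the cells cannot be told apart.

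Differences between libraries within the Tcf7-positive cells are given by Tet2 genotype and by treatment, and cannot be told apart from other differences between single libraries. With 1 library per group they have no test, and genes were counted by size, at least 1.5-fold among 2354 genes with a mean of at least 50 CPM. Knockout over wild-type, untreated, had 236 genes higher (10%) and 312 lower (13.3%), and under anti-PD-L1 109 higher (4.63%) and 82 lower (3.48%). Anti-PD-L1 over untreated had 283 higher (12%) and 607 lower (25.8%) in wild-type, and 154 higher (6.54%) and 176 lower (7.48%) in knockout. Both comparisons with most genes use the wild-type untreated library, so they are not independent. The split of directions depended on scaling. With TMM factors the counts were 312 higher and 202 lower, 70 and 123, 400 and 382, and 139 and 177, and the median over genes moved by more than 0.1 for the comparisons with wild-type untreated, from -0.11 to 0.00 by genotype and from -0.22 to -0.02 by treatment. The other cells of the same libraries had 185 and 217, 23 and 33, 270 and 508, and 63 and 30 genes by the same rule.

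Effector genes that passed the size rule in the Tcf7-positive cells were higher. Of 14 effector genes at this level, 10 were higher in knockout untreated, 4 in knockout under anti-PD-L1, 12 with anti-PD-L1 in wild-type and 7 with anti-PD-L1 in knockout, and 0 were lower in any. Of all 2354 genes, 10%, 4.63%, 12% and 6.54% were higher and 13.3%, 3.48%, 25.8% and 7.48% lower. The level is a mean over the libraries. Gzma and Cxcr6, found in 1 and 2 cells of wild-type untreated, reached it through the other libraries. The median log2 ratios of the 14 genes, in the same order, were 1.145, 0.19, 1.35 and 0.71, against 0.65, -0.035, 1.18 and 0.62 in the other cells. The counts depended on the listing and the scaling. In knockout untreated 6 were higher and 1 lower in the first listing. With at least 2 Tcf7 UMIs 9 were higher and 1 lower there. By treatment, 9 were then higher and 1 lower in wild-type, and 7 higher and 1 lower in knockout. Under anti-PD-L1 1 gene was higher with TMM factors, 1 higher and 1 lower with cells weighted equally, 2 higher without each gene's top cell, and 6 in the first listing or with at least 2 Tcf7 UMIs. Gzmb, at 60.2, 296, 253 and 459 CPM, was lowest in wild-type untreated and highest in knockout anti-PD-L1. Its log2 ratio of knockout over wild-type was 2.07 untreated (exact 95% interval 1.49 to 2.70) and 0.63 under anti-PD-L1 (0.36 to 0.90). In the other cells the same ratios were 0.25 and 0.37. Ifng gave 2.26 (1.30 to 3.38) and 0.77 (0.12 to 1.42), against 0.66 and 0.63 in the other cells. In the first listing the untreated ratios were 1.09 for Gzmb and 0.13 for Ifng, and in cells with at least 2 Tcf7 UMIs the anti-PD-L1 ratio of Ifng was 0.019, from 10 UMIs in wild-type and 6 in knockout. The wild-type untreated values rest on 28 UMIs of Gzmb and 10 of Ifng, and UMIs within a cell are not independent, so these intervals are too narrow.

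With anti-PD-L1, Ccl5 was higher by a log2 ratio of 4.47 (3.98 to 5.0) in wild-type and 2.75 (2.53 to 2.98) in knockout, against 3.08 and 0.76 in the other cells. Macrophages of the same libraries held Ccl5 at 262, 3141, 2341 and 2425 CPM, so free RNA could carry part of it, which was not tested. Cxcr6 gave 4.82 (2.93 to 7.88, with 2 UMIs in wild-type untreated) and 1.62 (0.84 to 2.45), and it was detected in 0 to 1.60% of macrophages. S100a4, a calcium-binding protein gene of effector and memory T cells, gave 3.26 and 1.67 against 1.37 and 0.70, and Gzma 5.76 (3.25 to 11.08, with 1 UMI in wild-type untreated) and 1.27 (0.66 to 1.89). In the first listing the wild-type ratios of Cxcr6 and Gzma were 2.60 and 2.82 and the knockout ratio of Ccl5 was 2.13. In cells with at least 2 Tcf7 UMIs the wild-type ratio of Gzma was 0.52, and the knockout ratios of S100a4 and Cxcr6 were 0.048 and 2.53. Without its top cell the wild-type ratio of Gzma was 2.92. Of 10 T cell receptor response genes, 7 were higher and 1, Tnfrsf4, lower in knockout than in wild-type untreated, and 8 were higher in wild-type with anti-PD-L1 than without (5 in the first listing). Of all genes, 10% were higher and 13.3% lower in the former comparison, and 12% were higher in the latter. The median log2 ratios of the 10 genes were 1.19 and 1.28 in the Tcf7-positive cells and 0.91 and 1.24 in the other cells.

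The genes that mark the class behaved each in its own way. Slamf6 was lower in knockout anti-PD-L1, with log2 ratios of -0.71 (-1.21 to -0.23) against wild-type anti-PD-L1 and -0.72 (-1.23 to -0.23) against knockout untreated. In cells with at least 2 Tcf7 UMIs these ratios were -0.20 and -0.13. The other cells also had their lowest Slamf6 level in knockout anti-PD-L1. Dapl1 had ratios below 0 in all 4 comparisons. For knockout over wild-type without and with anti-PD-L1, and anti-PD-L1 over untreated in wild-type and knockout, its log2 ratios were -2.09 (-2.44 to -1.75), -0.71 (-1.19 to -0.26), -1.59 (-1.89 to -1.30) and -0.21 (-0.72 to 0.28), the last within counting error and turning to 0.22 in cells with at least 2 Tcf7 UMIs, and the ratios in the other cells were further from 0, at -3.74, -2.74, -2.98 and -1.98. Klf2 was higher in knockout than in wild-type untreated (log2 ratio 1.15, 0.73 to 1.59) and lower under anti-PD-L1 (-0.70, -1.01 to -0.39). Ccr7 gave 1.13 (0.85 to 1.42) and -0.31 (-0.49 to -0.14). The intervals of each gene's genotype ratios do not overlap, and the difference between them was not tested. In the other cells Ccr7 was likewise higher in knockout untreated and lower in knockout under anti-PD-L1. Klf2 of the other cells was nearly equal in the untreated libraries and lower in knockout under anti-PD-L1. Wild-type untreated had the lowest Klf2 and Ccr7 of the 4 libraries and the highest Dapl1 and Tox.

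**Figure D5:**
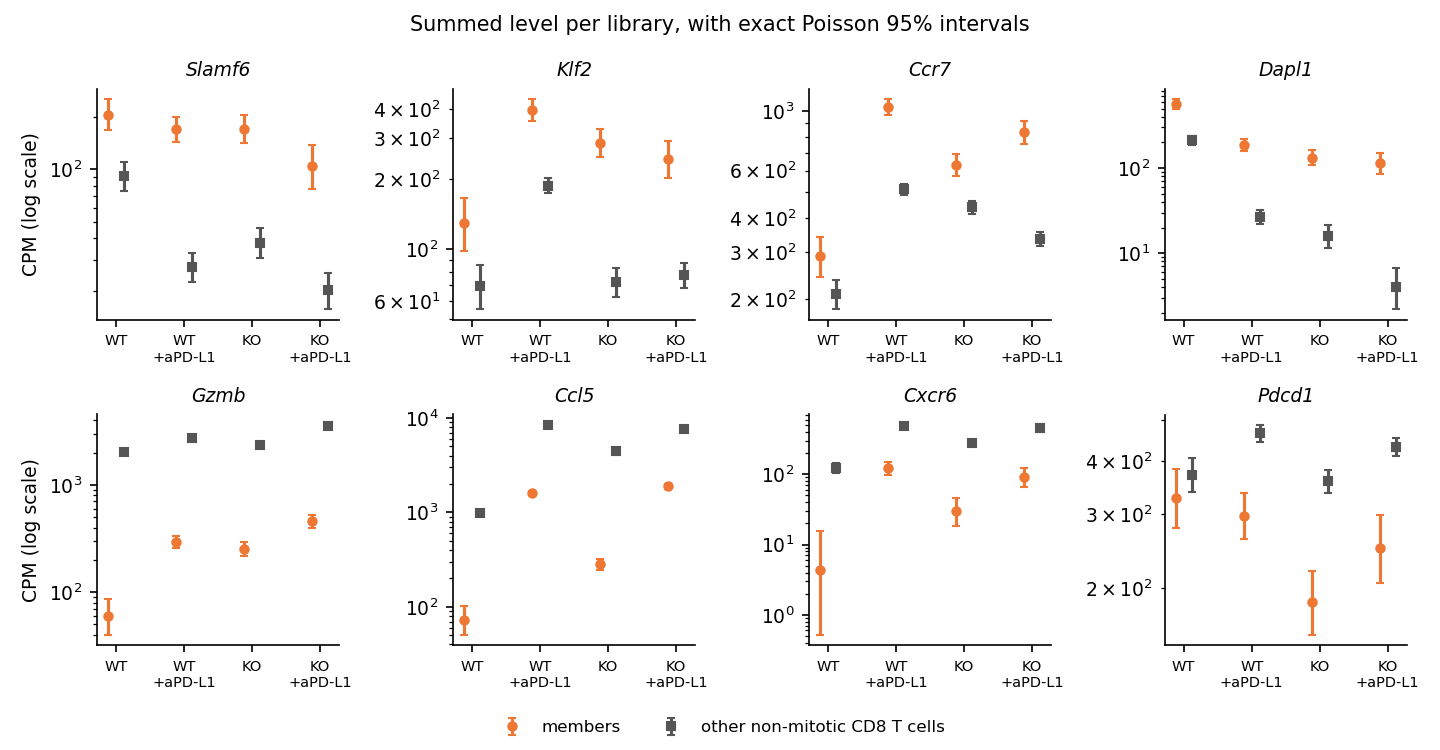
Summed level (CPM, log scale, vertical axis) of selected genes in the 4 libraries (horizontal axis) for the Tcf7-positive cells and the other non-mitotic CD8 T cells, with exact Poisson 95% intervals for counting error. Gzmb of the Tcf7-positive cells runs from 60.2 to 459 CPM below other cells at 2003 to 3549, and Dapl1 of both classes is highest in wild-type untreated.

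The genotype comparisons without and with anti-PD-L1 have no library in common. In both, 15 genes were at least 1.5-fold higher and 30 lower, while 7 and 22 that were higher or lower untreated went the opposite way under anti-PD-L1. The 15 are 6.36% of the genes higher untreated and 13.8% of those higher under anti-PD-L1, against 4.63% and 10% of all genes, so the share is near the background. The 30 are 9.62% and 36.6% of the lower genes, against 3.48% and 13.3%. Ifng, Ccl4 and the NK receptor genes Klrc1 (0.94 and 0.65) and Klrc2 (1.69 and 0.81) were among those higher, as was the survival gene Bcl2 (0.65, with an interval of -0.00 to 1.32, and 0.68, with 0.22 to 1.14). The untreated ratio of Ccl4 turned to -0.27 in the first listing, and its anti-PD-L1 ratio to -0.042 with cells weighted equally and -0.077 without its top cell. The untreated ratio of Bcl2 turned to -0.047 in cells with at least 2 Tcf7 UMIs. Among those lower were Fabp5, a fatty acid carrier gene (-1.17 and -0.99), Rtn4, an endoplasmic reticulum gene (-1.09 and -1.04), and Il18r1, the IL-18 receptor gene (-1.05 and -0.81). The corresponding ratios in the other cells were 0.35 and 0.17 for Bcl2, -0.83 and 0.40 for Fabp5, -0.64 and -0.20 for Rtn4, and -0.46 and 0.07 for Il18r1. Across the treatment comparisons 77 genes were higher in both and 97 lower in both, with 2 and 9 opposite. The 77 are 27.2% of the genes higher in wild-type and 50% of those higher in knockout, against 6.54% and 12% of all genes. The 97 are 16.0% and 55.1% of the lower genes, against 7.48% and 25.8%. The lower ones included the replication genes Tk1 (-1.68 and -1.65), Gmnn (-1.89 and -1.30) and Rnaseh2b (-2.16 and -1.76), and of 15 S phase genes 14 were lower with anti-PD-L1 in wild-type and 9 in knockout. Of all genes, 25.8% and 7.48% were lower. The S phase medians were -1.08 and -0.65, against -1.45 and -0.20 in the other cells. By genotype, 9 of the 15 were lower in knockout untreated (median -0.68), and 4 were higher and 3 lower under anti-PD-L1. Wild-type untreated is part of the untreated genotype comparison and of the treatment comparison in wild-type. The treatment comparison in knockout, with a median of -0.65, does not use that library. The number of Tcf7-positive cells just under the mitotic limit, with 3 mitotic UMIs, was also higher in the untreated libraries, 23 and 12 against 5 and 3, and its part in the S phase genes was not tested.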

How the data were processed

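Each single-cell library (10x Chromium 3′ V2 chemistry, per the labels' protocols) came as a table of UMI counts deposited by the authors, 1 barcode a line. The submitters' processing notes name mm10 and DESeq2, HTSeq, HISAT2, Bowtie2, bedtools, Genrich 0.5 and Trim Galore 0.5.0, and do not say which made these tables. Not given in the sources used here are the counter, annotation and cell calling. Each table lists most barcodes a second time with differing counts. The second listing was used, the first as an alternative. Gene names with a hyphen and a digit from 1 to 4 were left out, leaving 27916 genes. Cells had at least 500 genes and at most 10% mitochondrial UMIs, and doublets were not called. Some genes are not reported here.

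UMIs were summed per library and class. Sums were tested with edgeR 4.0.16 (TMM factors, quasi-likelihood, library as block, two-sided, Benjamini-Hochberg, genes of at least 10 CPM on average, gate genes left out). On simulated sums the test called 75% of genes changed 2-fold, 99% of those changed by 2 on the log2 scale and 0.164% of 6089 unchanged genes. These sums had a fixed dispersion that was not estimated from the data, and the same fold in each library. The rates therefore do not cover folds that differ between libraries, as many here did. The SE of a log2 fold was the absolute fold divided by the square root of the test's F statistic. It is not computed from the spread of the library ratios. Nothing says that the libraries come from separate cultures or experiments. Ratios between libraries have exact conditional binomial 95% intervals, and for a fold a count of 0 became 3. Promoters and coordinates are from RefSeq (GRCm38.p6).

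Genes were named by rule: the gate genes and markers, the 12 with the largest fold in each direction among called genes of at least 50 CPM with 1 direction in all libraries, up to 4 called genes of each list, 20 chosen genes whatever their value, and the 8 with the largest smaller fold in both genotype or both treatment comparisons. Genes outside it, such as Foxp1, Foxo1, Prf1, Tbx21, Irf8 and Xcl1 in the comparison of libraries, are named as members of lists. Members and lists were chosen with earlier results of these data known. Alternatives included DESeq2 1.42.0, other scalings and filters, and each library left out. The fits in mitotic cells and without Ighm, the counts of gated cells in the first listing, the removal of each gene's top cell, and the alternatives for Gzmb, Slamf6, Dapl1, Klf2, Ccr7 and the lists between libraries were added after seeing the data. Versions were Python 3.11.15, numpy 2.4.6, scipy 1.17.1, matplotlib 3.10.9 and R 4.3.3.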

Additional observations from a re-analysis of the deposited data

Results flagged for a closer look

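In 4 of 81 named genes 1 library lay apart from the other 3 in the log2 ratio of Tcf7-positive cells over other cells, with a gap past the 95% limit of Dixon's ratio for 4 values. Chance gives this in about 1 of 20 genes. The wild-type untreated library was the one apart for Gzmb (-5.06, the furthest below 0) and Slc2a3 (-1.32). Knockout untreated was apart for Ifitm1 (-6.02, from 2 UMIs in the Tcf7-positive cells) and wild-type anti-PD-L1 for Smpdl3a (0.22).

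Klf2 in the Tcf7-positive cells was higher in knockout than in wild-type untreated (log2 ratio 1.15) and lower in knockout than in wild-type under anti-PD-L1 (-0.70). With 1 library per group this difference was not tested.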

How the results depend on the processing

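The replicate block is the library, which pairs the 2 classes, and with no replicate block 9 genes were higher and 11 lower. The counts of 382 higher and 375 lower became 144 and 157 with DESeq2, 219 and 249 with cells thinned to 2000 UMIs, 127 and 101 without cells holding Ighm, and 124 to 363 and 175 to 389 with 1 library left out. Genes called higher numbered 585 against all other CD8 T cells, 251 against cells with neither Tcf7 nor Havcr2, 204 with at least 2 Tcf7 UMIs, 241 with cells weighted equally and 183 in mitotic cells. Genes called lower numbered 568 with every gene tested and 241 above 50 CPM. Shares were 8.48%, 6.17%, 7.32% and 3.54% thinned, 4.06%, 4.47%, 4.64% and 3.15% with at least 2 Tcf7 UMIs, and 26.2%, 15.4%, 18.6% and 11.6% of non-mitotic cells. Between libraries, higher and lower counts were 610 and 776, 481 and 338, 673 and 1228, and 515 and 561 above 20 CPM, and 113 and 139, 23 and 23, 157 and 296, and 61 and 60 above 100 CPM. TMM gave 202 lower by genotype untreated, 70 higher by genotype under anti-PD-L1 and 382 lower by treatment in wild-type. At least 2 Tcf7 UMIs gave 251 higher and 248 lower by genotype under anti-PD-L1 and 414 lower by treatment in knockout, and leaving out each gene's top cell gave 124 lower by genotype under anti-PD-L1.

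Of named genes 82 of 82 kept call and direction with DESeq2's size factors. Signs turned mostly for uncalled genes: Il7r (0.02 and 0.045 without knockout untreated or knockout anti-PD-L1, 0.40 against all CD8 T cells, 0.0049 against cells with neither gene, 0.052 thinned, 0.030 equally weighted, 0.10 in mitotic cells, 0.27 without Ighm), Cd69 (-0.020 in the first listing, -0.0094 against cells with neither gene, -0.038 with 2 Tcf7 UMIs, -0.033 thinned, -0.21 in mitotic cells, -0.083 counted in the first listing), Satb1 (-0.051 with 2 Tcf7 UMIs, -0.12 in mitotic cells), Bach2 (-0.17 counted in the first listing) and Tet2 (0.091 thinned). Of called genes, Gimap1 (-0.055) and Rpl7l1 (0.080) turned in mitotic cells and Lag3 (0.012) against all CD8 T cells. Between libraries, Ccl4 turned by genotype untreated in the first listing (-0.27) and by genotype under anti-PD-L1 with cells weighted equally (-0.042) or without the top cell (-0.077), Tcof1 (0.12) and, by treatment in wild-type, Hba-a1 (0.34) in the first listing, Bcl2 (-0.047) and, by treatment in knockout, Serpine2 (-0.092) with 2 Tcf7 UMIs, Hba-a1 by treatment in knockout without its top cell (0.59), and Dapl1 by treatment in knockout with 2 Tcf7 UMIs (0.22). The causes were not tested. Depth limits genes under about 10 CPM, among them S1pr1 and Prdm1.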
